A study of Homo sapiens with 20 samples.

Results

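Luminal breast identity is represented here by 9 genes, ESR1, PGR, GATA3, FOXA1, SPDEF, XBP1, TFF1, TFF3 and AGR2, which were looked up by gene symbol among the 60271 genes of the deposited table. All 9 were found. They were followed in MDA-MB-468 cells, an established epithelial cell line from a triple-negative breast cancer, meaning a tumor without estrogen receptor, progesterone receptor or HER2 protein. Cells were moved to serum-free medium 24 h after seeding, and the described protocol gives EGF after a further 24 h. The cells were left untreated as the control or given EGF at 50 ng/mL, which acted for 12, 24, 48 or 72 h before harvest. Each of the 5 groups holds 4 biological replicates. EGF was used to induce epithelial-mesenchymal transition, and the question followed here is what became of the luminal program meanwhile. Per the sample labels all groups were seeded and harvested together, so that EGF was added at different times. The time without serum before EGF is not given for each group. If serum was removed from all groups 24 h after seeding, as described, this time differed between them. Its part in the results was not tested and cannot be told apart from that of the time of EGF-treatment. Everything below comes from this single cell line in culture.

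In the mammary epithelium, luminal cells line the ducts and carry hormone receptors, while basal cells lie beneath them. Estrogen receptor alpha, encoded by ESR1, is a transcription factor that is switched on by its hormone. FOXA1 is a pioneer factor that opens chromatin for it, and GATA3 is needed to form and keep luminal cells. SPDEF is an ETS family factor of luminal and secretory cells. XBP1 is a transcription factor of the unfolded protein response, whose mRNA is spliced by the sensor IRE1 (gene ERN1) when misfolded proteins build up. PGR, the progesterone receptor, and TFF1, a secreted trefoil peptide, are classical genes induced by estrogen, and TFF3 is a related trefoil peptide. AGR2 is a protein disulfide isomerase of the endoplasmic reticulum in secretory cells.

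The sequence just before the transcription start is shown for the 3 genes that lay below the control at all 4 time points (XBP1, FOXA1 and SPDEF) and for AGR2, whose direction turned. Each line holds the 250 bases before the RefSeq start, 5′ to 3′ on the gene's own strand, which is the minus strand for all of them. Positions are on GRCh38.p14, at chr22:28800570-28800819 for XBP1, chr14:37595250-37595499 for FOXA1, chr6:34556330-34556579 for SPDEF and chr7:16805000-16805249 for AGR2. Capitals mark matches to the endoplasmic reticulum stress element (CCAAT and CCACG with 9 bases between them), to its core CCACG and to the GATA motif AGATAA.
XBP1: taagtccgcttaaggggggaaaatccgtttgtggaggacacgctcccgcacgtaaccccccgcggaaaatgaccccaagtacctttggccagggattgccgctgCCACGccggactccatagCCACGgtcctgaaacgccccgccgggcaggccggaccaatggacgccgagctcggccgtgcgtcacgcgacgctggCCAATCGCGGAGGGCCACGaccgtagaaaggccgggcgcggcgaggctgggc
FOXA1: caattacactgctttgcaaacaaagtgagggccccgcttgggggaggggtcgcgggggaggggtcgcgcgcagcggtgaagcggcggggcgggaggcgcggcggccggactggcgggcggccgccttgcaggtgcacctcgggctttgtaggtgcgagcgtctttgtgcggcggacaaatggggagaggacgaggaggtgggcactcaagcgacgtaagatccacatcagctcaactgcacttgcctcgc
SPDEF: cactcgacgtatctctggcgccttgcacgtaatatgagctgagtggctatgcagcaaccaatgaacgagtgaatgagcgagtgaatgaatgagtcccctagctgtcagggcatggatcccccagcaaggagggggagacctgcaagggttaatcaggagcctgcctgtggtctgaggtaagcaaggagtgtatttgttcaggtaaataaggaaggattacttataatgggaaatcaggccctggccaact
AGR2: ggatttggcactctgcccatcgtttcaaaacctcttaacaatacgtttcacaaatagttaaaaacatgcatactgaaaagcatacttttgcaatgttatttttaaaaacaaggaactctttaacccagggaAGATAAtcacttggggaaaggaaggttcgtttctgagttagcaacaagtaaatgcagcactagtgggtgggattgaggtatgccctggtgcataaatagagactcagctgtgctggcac

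The RefSeq promoter table held 7 of the 9 genes, and TFF1 and TFF3 were not among them. Motifs were searched on both strands over 250 bases before and 50 after the start. The full stress element stood in the XBP1 promoter with its first base at position -52, and its last 5 bases are also a CCACG match. That element was present in 27 of all 35116 promoters, or 0.0769%. CCACG occurred in XBP1 and PGR and in 38.1% of all promoters, and AGATAA only in AGR2 among the 7 and in 10.3% of all. None of the 7 held the forkhead motif TGTTTAC (3.42% of all promoters), the full estrogen response element of GGTCA and TGACC with 3 bases between them (0.057%) or the AP-1 motif TGANTCA (7.71%). The base composition of the 250 bases differed widely, from 36% G and C in ESR1 to 67.6% in XBP1. A single RefSeq start was searched per gene, and whether it is the start in use in these cells was not tested. For AGR2, FOXA1 and PGR the bases before it lie inside the gene as placed by GENCODE. A match or its absence here describes the letters in this window only.

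Each library held between 15611961 and 25856953 estimated counts. Expression is given as CPM, the count scaled to library size with TMM normalization, and a value after ± is the SD (n = 4). Fold changes and p values come from the quasi-likelihood test of edgeR and were adjusted by Benjamini-Hochberg over the 16522 genes that passed the filter on low counts, with 0.05 as the threshold. The 4 control libraries serve in every comparison with the control. The mitochondrial share of the counts averaged 10.9% without EGF, 9.41% after 12 h and 15.0% after 72 h, and the part of this in the results below was not tested. In bulk RNA, fewer cells that express a gene and less of its RNA per cell cannot be told apart. Of the 9 genes, 6 passed the filter, and PGR, TFF1 and TFF3 did not.

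Most of the luminal genes that could be tested were lower with EGF-treatment at 12, 24 and 72 h, and 3 of 6 at 48 h. At 12 h, ESR1, FOXA1, SPDEF, XBP1 and AGR2 were lower than in the control, 5 of 6, where 69.4% of all tested genes were called, 32.9% higher and 36.5% lower. At 24 h all 6 passed the test, with the same 5 lower and GATA3 higher, against 58.8% of all genes (29.2% higher and 29.6% lower). At 48 h, 5 of 6 passed, with FOXA1, SPDEF and XBP1 lower and GATA3 and AGR2 higher, against 45.8% (24% higher and 21.8% lower). At 72 h all 6 passed, with 4 lower (ESR1 among them again) and GATA3 and AGR2 higher, against 61.6% (30.6% higher and 31% lower). FOXA1, SPDEF and XBP1 were lower at all 4 time points, as were 10.4% of all tested genes. The median log2 fold change of the 6 genes was -1.0, -0.69, -0.23 and -0.79 in the order of time, beside medians over all tested genes of -0.054, -0.0071, 0.0099 and -0.0090.

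**Figure D1:**
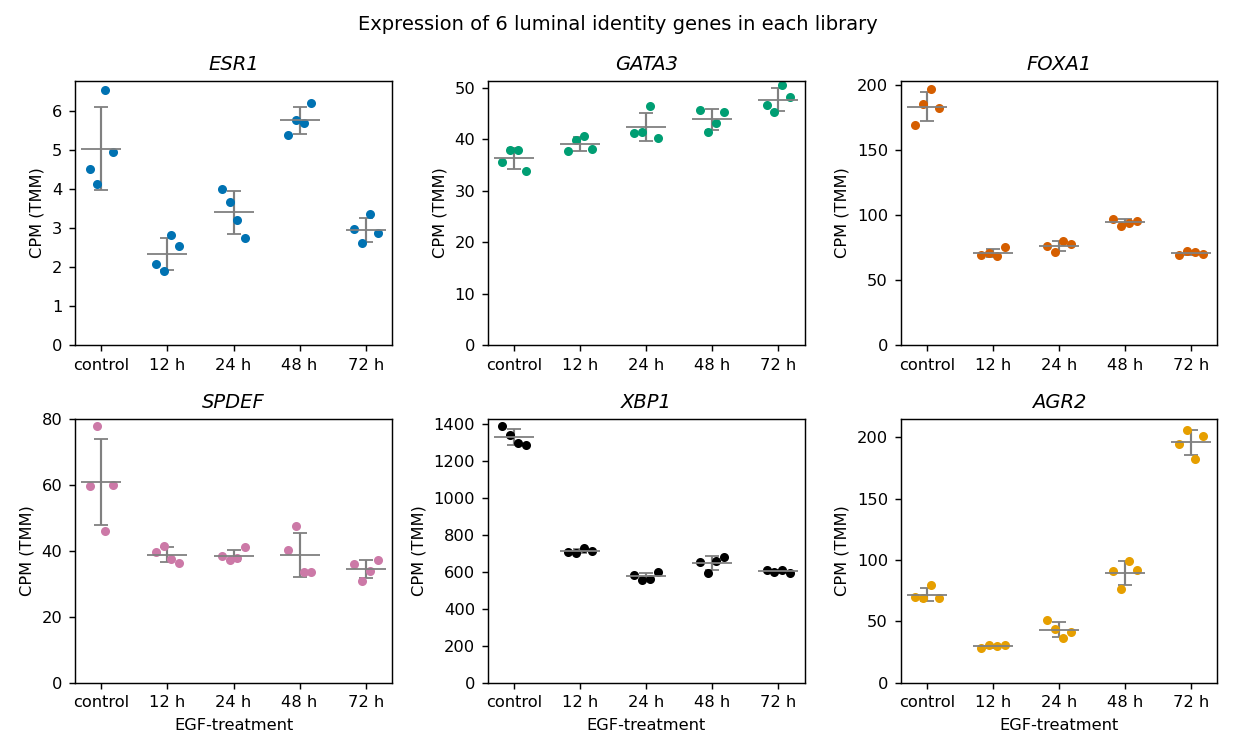
CPM after TMM normalization (vertical axes, from 0) of the 6 tested genes in the untreated control and at the 4 times of EGF-treatment. Each point is a library, and grey bars are the mean and SD of 4 libraries. XBP1 and FOXA1 lie below all controls at every time point, and AGR2 has a mean of 71.8 CPM without EGF, 29.8 after 12 h and 196 after 72 h.

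The receptor genes were scarce. PGR (chr11:101029624-101130524, minus strand, GENCODE 29 on GRCh38) had no count in any of the 20 libraries, out of 403058855 counts in all. A count of 0 allows up to 3 counts over a group, or 0.0341 CPM for the control and up to 0.0405 CPM for 24 h. An expression of PGR below these levels would not have been seen, and these limits cover counting error only.

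ESR1 (chr6:151656691-152129619, plus strand, 20 merged exons) was detected in every library, with 35 to 153 counts. Its CPM in control replicates 1 to 4 was 4.52, 4.12, 6.53 and 4.95. After 12 h it was 2.07, 1.91, 2.82 and 2.53, and after 24 h 4.00, 3.67, 3.20 and 2.73. All libraries of these time points lay below all controls. At 48 h the values were 5.37, 5.76, 5.69 and 6.20, which overlap the control, and at 72 h they were 2.96, 2.61, 3.35 and 2.87, again below all controls. ESR1 was thus 2.16-fold lower at 12 h (log2 fold change -1.11, SE 0.16, adjusted p = 1.60e-06), 1.48-fold lower at 24 h (-0.56, SE 0.15, adjusted p = 0.00323) and 1.70-fold lower at 72 h (-0.77, SE 0.16, adjusted p = 0.000178). At 48 h the log2 fold change was 0.20 (SE 0.15, adjusted p = 0.291).

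The return of ESR1 at 48 h was tested directly between the EGF-treatments. It was higher at 48 h than at 12 h (log2 fold change 1.30, SE 0.16, adjusted p = 1.34e-07) and 24 h (0.76, SE 0.15, adjusted p = 0.000264), and lower at 72 h than at 48 h (-0.96, SE 0.16, adjusted p = 3.56e-05). In order of level, ESR1 ran from 48 h (5.76 CPM) through the control (5.03), 24 h (3.40) and 72 h (2.95) to 12 h (2.33), and of these neighbours only the control and 24 h differed beyond the threshold. The rise from 12 to 72 h passed by library size only (0.55, adjusted p = 0.00680) and by upper quartiles (0.48, adjusted p = 0.0141). It also passed with at least 10 counts in every library (0.43, adjusted p = 0.0292) and without replicate 3 at 12 h (0.43, adjusted p = 0.0412). With scaling factors per gene taken from the deposited normalized values, the log2 fold changes against the control at 24 and 72 h were -0.58 and -0.55, with an SE of 0.28 each, and no longer passed (adjusted p = 0.0910 and 0.103). Neither did the changes from 24 to 48 h (0.60, adjusted p = 0.0947) and from 48 to 72 h (-0.57, adjusted p = 0.142). The exons of ESR1 share 0.974% of their bases with AL078582.1 on the same strand.

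FOXA1 (chr14:37589984-37596059, minus strand, 4 merged exons) had the lowest log2 fold change of the 6 genes at 12, 24 and 72 h, though differences between genes were not tested. Its CPM in the 4 controls was 169, 185, 196 and 182. At 12 h it was 69.3, 70.3, 68.5 and 75.04, at 24 h 76.0, 71.4, 80.02 and 77.9, at 48 h 96.5, 91.2, 93.8 and 95.5, and at 72 h 69.4, 72.6, 71.1 and 70.2. No treated library came near a control. FOXA1 was 2.59-fold lower at 12 h (log2 fold change -1.37, SE 0.059, adjusted p = 1.19e-15), 2.40-fold lower at 24 h (-1.26, SE 0.059, adjusted p = 6.96e-15), 1.94-fold lower at 48 h (-0.96, SE 0.058, adjusted p = 2.29e-12) and 2.59-fold at 72 h (-1.37, SE 0.059, adjusted p = 1.26e-15).

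Like ESR1, FOXA1 was higher at 48 h than at the time points beside it, but it stayed far below the control. It rose by a log2 fold change of 0.31 from 24 to 48 h (SE 0.058, adjusted p = 0.000138) and differed by -0.41 from 48 to 72 h (SE 0.058, adjusted p = 6.20e-06). The levels at 24, 72 and 12 h followed each other with 76.3, 70.8 and 70.8 CPM, and neighbours among them did not differ beyond the threshold. Under other scalings 72 h was above 12 h, by 0.21 with library size only (adjusted p = 0.00602) and 0.14 with upper quartiles (adjusted p = 0.0270). At 48 h, only 2.85% of all tested genes had a more negative fold change than FOXA1.

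SPDEF (chr6:34537802-34556333, minus strand, 6 merged exons) measured 59.8, 77.9, 46.0 and 60.0 CPM in the controls, with a mean of 60.9 ± 13.1 CPM (SD, n = 4). At 12 h it measured 39.8, 41.7, 37.7 and 36.4 CPM, at 24 h 38.4, 37.1, 37.9 and 41.2, at 48 h 40.3, 47.6, 33.5 and 33.6, and at 72 h 36.2, 31.0, 34.1 and 37.3. Each treated library lay below the lowest control except replicate 2 at 48 h. The gene was 1.57-fold lower at 12 h (log2 fold change -0.65, SE 0.12, adjusted p = 4.50e-05), 1.58-fold at 24 h (-0.66, SE 0.12, adjusted p = 5.75e-05), 1.57-fold at 48 h (-0.65, SE 0.12, adjusted p = 9.57e-05) and 1.76-fold at 72 h (-0.81, SE 0.12, adjusted p = 3.36e-06). Between EGF-treatments no difference of SPDEF passed the threshold in the main fit, with log2 fold changes from -0.17 to 0.0017 and an SE of 0.12 each. From 12 to 72 h it passed with the 8 libraries alone (-0.15, adjusted p = 0.0383). From 12 to 48 h it passed by library size only, as a rise (0.29, adjusted p = 0.0364).

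XBP1 (chr22:28794555-28800597, minus strand, 6 merged exons) was the most abundant of the 9 genes. It measured 1389, 1345, 1301 and 1291 CPM in the controls. At 12 h it stood at 711, 706, 728 and 715 CPM, at 24 h at 584, 559.6, 564 and 598, at 48 h at 657, 594, 661 and 683, and at 72 h at 613, 601, 609 and 594. Treated and control libraries were far apart at each time point. XBP1 was 1.86-fold lower at 12 h (log2 fold change -0.90, SE 0.051, adjusted p = 1.93e-13), 2.31-fold at 24 h (-1.21, SE 0.051, adjusted p = 1.30e-15), 2.05-fold at 48 h (-1.04, SE 0.051, adjusted p = 5.37e-14) and 2.20-fold at 72 h (-1.14, SE 0.051, adjusted p = 2.90e-15). It went on falling after 12 h, with a log2 fold change of -0.31 from 12 to 24 h (SE 0.051, adjusted p = 1.98e-05). From 24 to 48 h it rose by 0.17 (SE 0.051, adjusted p = 0.00725), a call that was lost without the filter on low counts (adjusted p = 0.0823). Counts per gene do not tell spliced from unspliced XBP1 mRNA.

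GATA3 (chr10:8045378-8075203, plus strand, 8 merged exons) moved the other way, and little. In the controls it measured 35.5, 37.9, 37.9 and 33.8 CPM, and at 12 h 37.7, 39.7, 40.6 and 38.1 CPM. At 24 h it stood at 41.2, 41.4, 46.4 and 40.2 CPM, at 48 h at 45.7, 41.4, 43.0 and 45.3, and at 72 h at 46.6, 45.3, 50.4 and 48.2. From 24 h on, every treated library was above every control. The rise was 1.16-fold at 24 h (log2 fold change 0.22, SE 0.065, adjusted p = 0.00580), 1.21-fold at 48 h (0.27, SE 0.065, adjusted p = 0.00134) and 1.31-fold at 72 h (0.39, SE 0.065, adjusted p = 1.38e-05), and at 12 h its log2 fold change was 0.10 (SE 0.065, adjusted p = 0.159). No neighbours in the order of its levels differed beyond the threshold, although 72 h was above 12 h (0.29, SE 0.065, adjusted p = 0.000435). By library size only, 24 h was above 12 h (0.26, adjusted p = 0.00384) and 48 h above 24 h (0.21, adjusted p = 0.0169).

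The small changes of GATA3 depended on scaling. Scaled by library size only, the log2 fold change at 12 h was -0.18 (adjusted p = 0.0266) and that at 24 h was 0.077 (adjusted p = 0.359). That scaling put the median of all genes at -0.337 at 12 h and -0.150 at 24 h. Relative to that median, GATA3 stood at 0.16 and 0.23, as it did in the main fit. A change of scaling moves all genes nearly alike, so this distance cannot decide between the scalings.

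**Figure D2:**
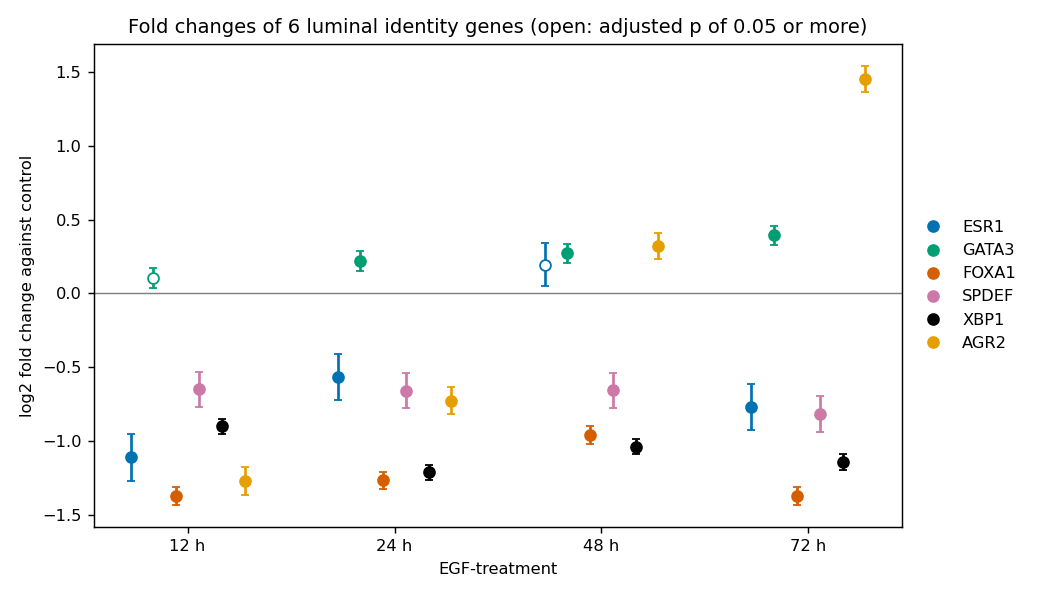
Log2 fold change against the control (vertical axis) of the 6 tested genes at each time of EGF-treatment, with bars for the SE from edgeR. Filled points had an adjusted p under 0.05, and the open points are GATA3 at 12 h and ESR1 at 48 h. AGR2 moves from -1.27 at 12 h to 1.45 at 72 h.

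Of the secretory genes, AGR2 ended higher than it began. AGR2 (chr7:16791811-16833433, minus strand, 10 merged exons) measured 70.0, 68.8, 79.4 and 68.9 CPM in the controls. It was low at 12 h (28.1, 30.8, 29.6 and 30.8 CPM) and at 24 h (51.6, 44.2, 36.3 and 41.4 CPM), below all controls in all libraries. At 48 h it reached 91.2, 76.1, 99.4 and 91.5 CPM, with replicate 2 inside the range of the controls, and at 72 h 195, 206, 182 and 201 CPM, far above it. AGR2 was 2.41-fold lower at 12 h (log2 fold change -1.27, SE 0.092, adjusted p = 1.75e-11) and 1.65-fold lower at 24 h (-0.73, SE 0.090, adjusted p = 2.85e-07). By contrast it was 1.25-fold higher at 48 h (0.32, SE 0.088, adjusted p = 0.00470) and 2.73-fold higher at 72 h (1.45, SE 0.089, adjusted p = 1.07e-12).

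AGR2 was the only one of the 6 genes in which all neighbours in the order of levels differed beyond the threshold. Each later EGF-treatment was higher than the one before, by log2 fold changes of 0.54 from 12 to 24 h (SE 0.093, adjusted p = 3.51e-05), 1.05 from 24 to 48 h (SE 0.091, adjusted p = 2.31e-09) and 1.13 from 48 to 72 h (SE 0.088, adjusted p = 8.20e-10). From 12 to 72 h the rise was 6.58-fold. Of all tested genes, 9.24% had a higher fold change than AGR2 at 72 h. Its paralog and neighbour AGR3 (chr7:16859405-16881987) had a single count in a single library, at 48 h.

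TFF1 (chr21:42362282-42366594, minus strand, 3 exons) had no count in the controls or at 12 h. A single count was found at 24 h, in replicate 3, and another at 48 h, in replicate 4. At 72 h the 4 libraries held 5, 2, 5 and 4 counts, so that only there every library had any. The 16 counts at 72 h amount to 0.207 CPM over the group, 6.08-fold the limit of 3 counts over the control group, 0.0341 CPM. This ratio leaves out the counting error of the 16 counts. An exact permutation test over the 4 and 4 libraries (two-sided, not adjusted) gave p = 0.0286, the smallest that this design allows. Any full separation of the groups gives this value, so it adds nothing to the counts above. It was run for this gene and comparison only. Without the filter on low counts, when 33535 genes were tested in edgeR, the adjusted p of TFF1 at 72 h was 0.00120 against the control, 0.00175 against 12 h, 0.0270 against 24 h and 0.0188 against 48 h. These are very low counts, far below those of the other detected genes.

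TFF3 (chr21:42311667-42315651, minus strand), a neighbour of TFF1 on chromosome 21, had no count in any library, so that the limits given for PGR apply. TFF2, the trefoil gene between them (chr21:42346357-42351128), showed the course of TFF1 at slightly higher counts. It had none in the controls, 0 to 1 count at 12 h, 0 to 2 at 24 h, 1 to 2 at 48 h and 6 to 15 at 72 h. Without the filter, its adjusted p against the control was 5.07e-06 at 72 h and 0.0253 at 48 h. TFF2 was singled out after its values were seen.

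**Figure D3:**
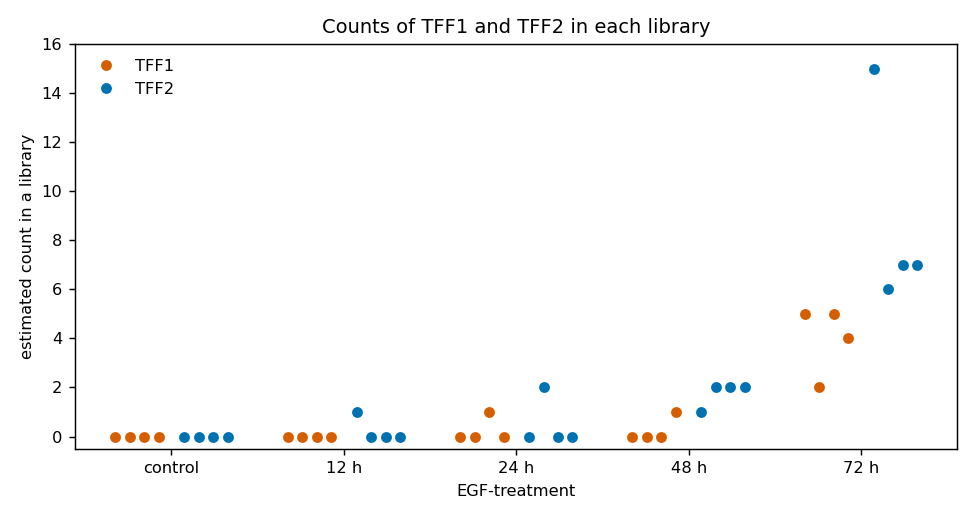
Estimated counts of TFF1 and TFF2 in each library (vertical axis, not normalized) by time of EGF-treatment, where each point is a library. TFF1 has 2 to 5 counts and TFF2 6 to 15 counts at 72 h, and both have 0 in all controls.

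Levels of different genes can be compared only per length, here as mean CPM per kilobase of merged exons. In the control XBP1 came first with 439.7, followed by FOXA1 (46.0), SPDEF (31.8), AGR2 (25.2), GATA3 (10.6) and ESR1 (0.363). XBP1 was thus above 99.6% of all tested genes, FOXA1 above 95.0% and ESR1 above 17.0%. At 72 h, AGR2 (68.9) came after XBP1 (199.6), and SPDEF (18.1), FOXA1 (17.8) and GATA3 (13.9) lay close together. ESR1 was last with 0.213 CPM per kilobase, above 8.27% of all tested genes.

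**Figure D4:**
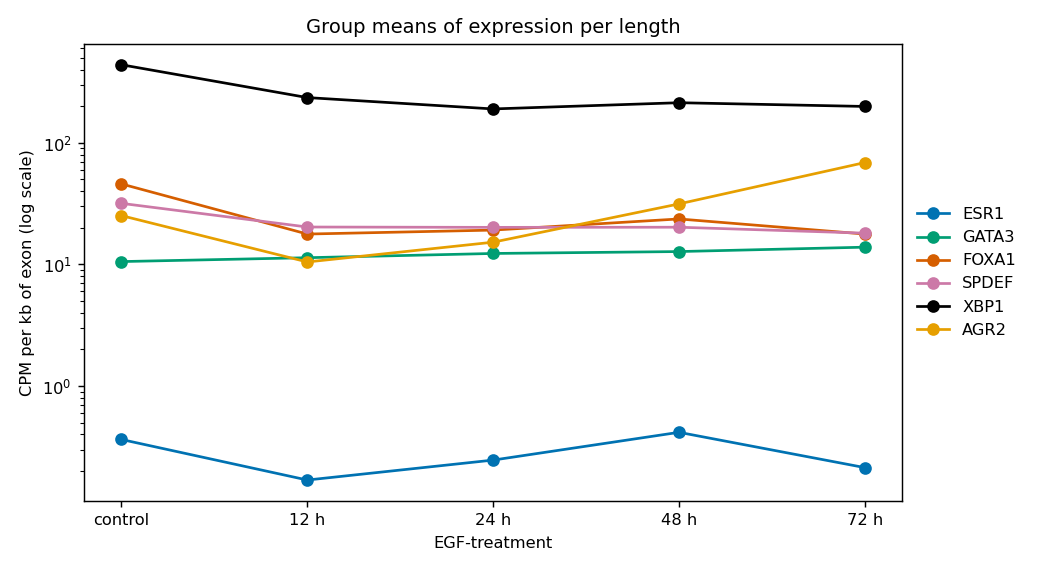
Mean CPM per kilobase of merged exons (vertical axis, log scale) of the 6 tested genes by time of EGF-treatment. XBP1 is the highest and ESR1 the lowest in every group, and AGR2 moves from the fourth place in the control to the second at 48 and 72 h.

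The EGF-treatments were also compared with each other. From 12 to 24 h, 3 of them passed the test (53.7% of all tested genes), from 12 to 48 h 5 (70.3%) and from 12 to 72 h 3 (67.6%). From 24 to 48 h 4 passed (50.2%, with 25.9% higher), from 24 to 72 h 2 (40.2%) and from 48 to 72 h 3 (35.7%). The 4 genes that changed from 24 to 48 h, AGR2, ESR1, FOXA1 and XBP1, all rose. From 48 to 72 h, AGR2 rose while ESR1 and FOXA1 fell. Some of these calls depended on single libraries or settings. For GATA3, the call from 24 to 72 h was lost without replicate 1, 2 or 4 at 24 h or replicate 3 or 4 at 72 h (adjusted p up to 0.118), and that from 12 to 48 h without replicate 1 or 4 of either time point (adjusted p up to 0.0746). The latter was also lost with DESeq2's size factors (adjusted p = 0.0519), without the filter (0.246) and with factors per gene (0.351), and the former without the filter (0.158) and with factors per gene (0.155). The call of XBP1 from 12 to 48 h was lost without replicate 2 at 48 h (adjusted p = 0.0736), and its log2 fold change of -0.14 turned to 0.16 (adjusted p = 0.0165) when scaled by library size only. It was also lost by upper quartiles (0.454) and with at least 10 counts in every library (0.226). The call of XBP1 from 12 to 72 h was lost by library size only (0.626) and by upper quartiles (0.0589). That of ESR1 from 12 to 24 h was lost with factors per gene (0.0726). Other calls were gained. By library size only, FOXA1 rose from 12 to 24 h (0.25, adjusted p = 0.00202) and XBP1 fell from 48 to 72 h (-0.19, adjusted p = 0.0104). The latter also passed by upper quartiles (adjusted p = 0.0203) and without replicate 2 at 48 h (0.0320). XBP1 rose from 24 to 72 h with at least 10 counts in every library (0.12, adjusted p = 0.0460).

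Across the 20 libraries, the courses of the 6 genes fell into different patterns. Pearson's r of log2(CPM + 1) was 0.92 for FOXA1 with XBP1, 0.81 for SPDEF with XBP1 and 0.80 for FOXA1 with SPDEF. ESR1 followed FOXA1 with r = 0.64. GATA3 was opposed to XBP1 (r = -0.73) and SPDEF (r = -0.68), and AGR2 was nearly unrelated to XBP1 (r = -0.074) and FOXA1 (r = 0.056). The libraries form 5 groups and share their treatment, so these values describe the course and carry no p.

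For each of the 6 genes, the most similar course was sought by the same measure among the 13880 tested genes with a mean of at least 1 CPM. FOXA1 was followed most closely by CCL28, a chemokine of mucosal epithelia (r = 0.994), by PIK3R1, a regulatory subunit of PI3-kinase (0.983), and by CADPS2 (0.983). CCL28 measured 126 ± 6.62 CPM without EGF, 37.0 ± 1.69 at 12 h, 53.9 ± 4.66 at 48 h and 39.5 ± 1.84 at 72 h. AGR2 was most like RSAD2, an antiviral gene induced by interferon (0.975), ANKRD30B (0.968) and SH3BGR (0.967). RSAD2 had 4.96 ± 0.65 CPM in the control, 0.680 ± 0.177 at 12 h and 11.7 ± 1.66 at 72 h.

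For XBP1 the closest were CYP4Z2P (0.977), LINC01135 (0.975) and FAM210B (0.974), and for SPDEF IRX3 (0.930), SMO, the transducer of hedgehog signals (0.912), and SMPDL3B (0.912). ESR1 was most like C17orf75 (0.944), HLCS, which attaches biotin to carboxylases (0.939), and NUP37, a nuclear pore protein (0.939). GATA3 was most like GLIS3 (0.923), MYLK, the myosin light chain kinase (0.917), and C1orf54 (0.914). These likenesses did not mean equal sizes, since MYLK measured 8.59 ± 0.85 CPM without EGF and 65.4 ± 2.60 after 72 h and GATA3 by far less.

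Other genes of the luminal and estrogen receptor program moved in both directions. Of the 30 genes on this list, 24 were tested. At 12 h 12 were higher and 10 lower than in the control, at 24 h 8 and 12, at 48 h 5 and 10, and at 72 h 11 and 9. Their median log2 fold change was 0.10, -0.23, 0.011 and 0.25 at these time points, beside the medians of all tested genes and the shares of them called higher and lower given above, which also apply to the lists that follow.

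The falls of this list were led by RERG, an estrogen-regulated relative of RAS, which measured 88.9 ± 18.4 CPM without EGF and 8.51 ± 0.44 after 12 h (10.4-fold lower, log2 fold change -3.38, SE 0.16, adjusted p = 3.44e-14). It was still lower at 48 h (1.94-fold) and 72 h (5.03-fold). PRLR, the prolactin receptor, fell from 187 ± 30.9 to 53.0 ± 1.96 CPM at 12 h (3.54-fold, adjusted p = 1.34e-14). CXXC5 fell 2.79-fold by 72 h (adjusted p = 2.00e-11), and MYB, a transcription factor that estrogen receptor switches on, was 1.85-fold lower at 48 h (adjusted p = 3.44e-11).

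The luminal keratins rose instead. KRT18 stood at 787 ± 84.3 CPM without EGF and at 5134 ± 150 after 12 h (6.52-fold, log2 fold change 2.70, SE 0.087, adjusted p = 6.36e-18), and its partner KRT8 rose 4.99-fold (adjusted p = 4.02e-14). At 48 h both were near the control, with log2 fold changes of 0.084 (adjusted p = 0.420) and 0.073 (adjusted p = 0.628). STC2, a secreted glycoprotein induced by estrogen and by stress, exceeded the control 2.97-fold at 24 h, then 2.40-fold and 4.26-fold at 48 and 72 h (adjusted p = 5.39e-14, 6.33e-12 and 2.24e-16). MLPH, which links melanosomes to the motor myosin, was 2.53-fold higher at 72 h (adjusted p = 7.72e-12), and ABAT 1.78-fold higher at 48 h (adjusted p = 0.000894). GREB1, an early target of estrogen receptor, stayed under 2 CPM with 1.67 ± 0.30 CPM at 72 h and 0.894 ± 0.25 in the control (log2 fold change 0.89, SE 0.27, adjusted p = 0.00627), and was named outside the rule for named genes.

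Of 21 partners and relatives of the lineage factors, 16 were tested. At 12 h 10 were higher and 4 lower, at 24 h 7 and 4, at 48 h 3 and 5, and at 72 h 5 and 4, with medians of 0.32, 0.14, 0.0072 and -0.039. RUNX1, a factor that acts with estrogen receptor and GATA factors, rose from 51.7 ± 2.49 to 162 ± 11.9 CPM at 12 h (3.14-fold, adjusted p = 9.49e-14) and was 1.78-fold higher at 72 h (adjusted p = 2.10e-08). GATA2, a relative of GATA3 at low level, was 2.20-fold higher at 12 h (1.34 ± 0.40 in the control, 2.97 ± 0.40 CPM at 12 h, adjusted p = 1.49e-05). ELF5, a factor of milk-producing luminal progenitors, fell 4.82-fold at 12 h to 0.373 ± 0.068 CPM (adjusted p = 5.07e-08). GRHL2, which upholds epithelial junctions, was 1.90-fold lower at 12 h and 1.78-fold at 72 h (adjusted p = 1.24e-08 and 1.12e-07), and TRPS1, a GATA-type repressor, was 1.52-fold lower at 48 h and 1.76-fold at 72 h (adjusted p = 1.09e-05 and 7.79e-08). FOXA2 had no count in any library and FOXA3 at most 2 counts in a library.

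All 14 nuclear receptor coregulators were tested. At 12 h 7 were higher and 2 lower, at 24 h 6 and 4, at 48 h 2 and 6, and at 72 h 2 and 9, and the median fell from 0.28 at 12 h through 0.065 and -0.051 to -0.27 at 72 h. NRIP1, a corepressor that estrogen receptor itself induces, stood at 131 ± 22.1 CPM without EGF and at 71.2 ± 3.02 after 72 h (1.83-fold lower, adjusted p = 1.99e-08). The methyltransferase CARM1 was 1.86-fold higher at 12 h (adjusted p = 3.35e-09), while the coactivators NCOA1 and NCOA2 were 1.28-fold and 1.31-fold lower (adjusted p = 2.71e-06 and 9.48e-05). NCOA3, another coactivator, exceeded the control 1.47-fold, 1.21-fold and 1.18-fold at 24, 48 and 72 h (adjusted p = 1.52e-07, 0.00148 and 0.00325). PHB2, a repressor of estrogen receptor, fell 1.45-fold at 72 h (adjusted p = 5.33e-06), and SAFB 1.30-fold at 48 h (adjusted p = 0.000494).

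The genes around XBP1 in the unfolded protein response were called higher more often than lower at each time point. Of 20 genes 19 were tested, and 14 were higher and 1 lower at 12 h, 10 and 5 at 24 h, 7 and 3 at 48 h, and 12 and 3 at 72 h, with medians of 0.50, 0.19, -0.015 and 0.45. Of all tested genes, 32.9% were called higher and 36.5% lower at 12 h, 29.2% and 29.6% at 24 h, 24% and 21.8% at 48 h, and 30.6% and 31% at 72 h. HSPA5, the main chaperone of the endoplasmic reticulum, rose from 215 ± 13.1 to 524 ± 24.9 CPM at 12 h (2.43-fold, adjusted p = 2.89e-14) and 793 ± 45.0 at 72 h (3.69-fold, adjusted p = 3.59e-17). ERN1, which encodes IRE1, was 2.18-fold higher at 24 h (adjusted p = 6.61e-12), and EDEM1, of the degradation of misfolded glycoproteins, 1.86-fold (adjusted p = 1.67e-10). HERPUD1, of the same disposal route, was 1.57-fold higher at 48 h and 3.17-fold at 72 h (adjusted p = 1.02e-08 and 1.54e-16), and SDF2L1 2.69-fold higher at 12 h (adjusted p = 3.03e-09).

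Some members of this list fell. The disulfide isomerase PDIA6 was 1.47-fold lower at 48 h and 1.46-fold at 72 h (adjusted p = 5.60e-05 and 3.47e-05), and its relative PDIA4 1.36-fold and 1.17-fold (adjusted p = 9.88e-06 and 0.00652). SEL1L, an adaptor of the degradation complex, was 1.30-fold lower at 12 h and 1.22-fold at 24 h (adjusted p = 0.000479 and 0.00667), and CRELD2 1.44-fold lower at 24 h (adjusted p = 0.00114).

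**Figure D5:**
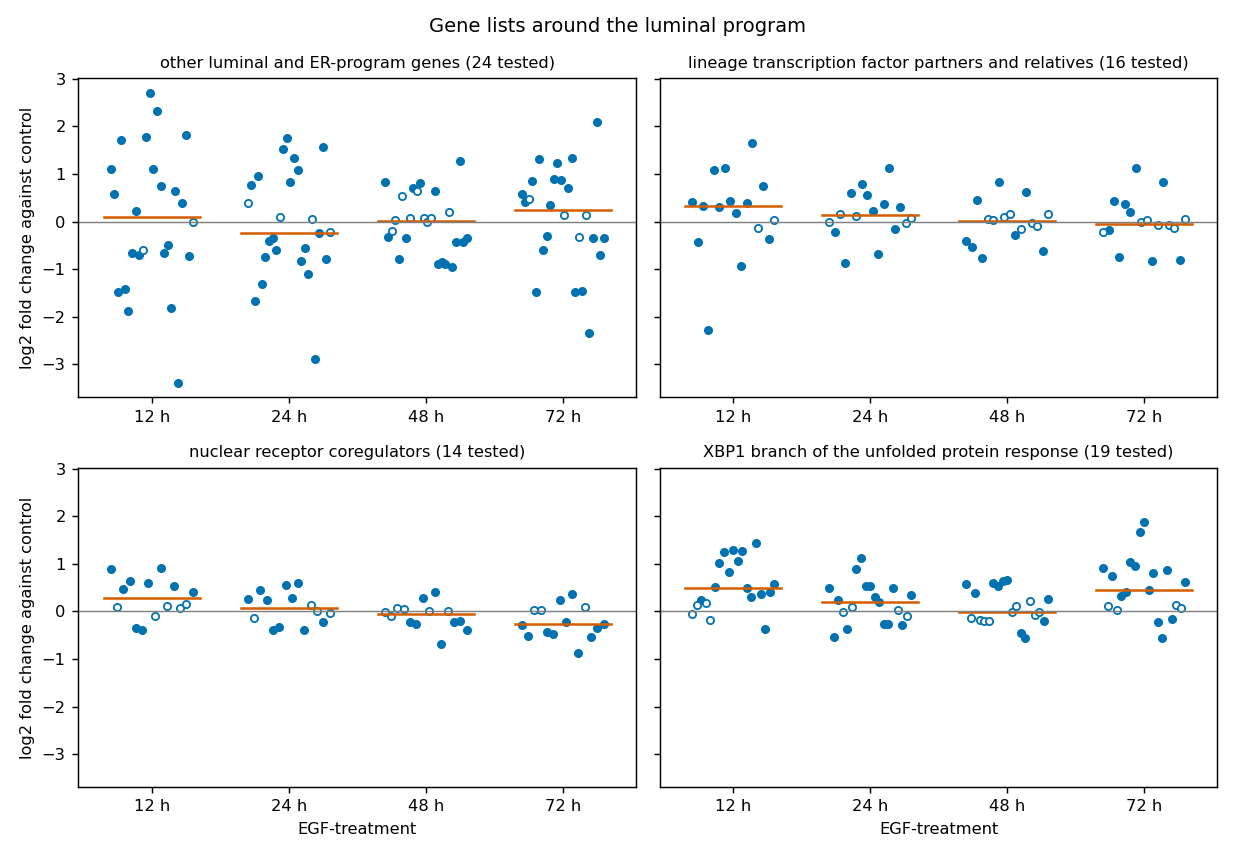
Log2 fold change against the control (vertical axes) of every tested gene of 4 lists by time of EGF-treatment, each point a gene. Filled points had an adjusted p under 0.05, and orange lines are medians. The list around XBP1 has a median of 0.50 at 12 h and 0.45 at 72 h, and the coregulators go from 0.28 to -0.27.

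The cells carried epithelial markers at every time point, and all 7 of EPCAM, CDH1, KRT8, KRT18, KRT19, CLDN4 and CLDN7 had counts in every group. They summed to 1602 to 2017 CPM in the control libraries and 7267 to 7803 at 12 h, most of it KRT18 (5134 ± 150 CPM at 12 h). Against the control, 7 were called higher and 0 lower at 12 h, and 4 and 1 at 24 h. At 48 h 0 were higher and 2 lower, and at 72 h 4 and 2, beside the shares of all tested genes given above. Markers of other cell types were low, with 5 to 6 markers of each type summing to at most 15.0 CPM for fibroblasts, 8.30 for leukocytes, 6.07 for endothelial cells and 3.54 for adipocytes in any library. CLDN5 for endothelium and FABP4 for adipocytes were at 0 throughout. The summed fibroblast markers lay between 5.12 and 7.90 CPM without EGF and between 13.1 and 15.0 CPM after 72 h, with the single tested marker called higher at all 4 time points. The leukocyte markers lay between 2.77 and 3.91 CPM without EGF, between 5.73 and 8.30 at 48 h and between 5.35 and 6.25 at 72 h, with both tested markers called higher at these times. The adipocyte markers lay between 2.26 and 2.98 CPM without EGF and between 0.653 and 1.46 at 12 h. The part of these changes in the results was not tested.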

How the data were processed

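RNA of 20 cultures (RNeasy Mini kit) was made into Corall mRNA libraries (Lexogen), which were read from a single end. The authors deposited 10 tables with the same 60271 genes, each with an estimated count per gene and library, rounded to a whole number. The authors also deposited normalized values, which are scores per gene on a count-like scale, used here only for scaling factors per gene, and fold changes and p-values from DESeq2, which were not used. Per the labels the genome build was hg38. The aligner and the handling of molecular identifiers are not given in the sources used here.

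The estimated counts were analyzed in edgeR 4.0.16 (R 4.3.3) with filterByExpr, TMM normalization, robust quasi-likelihood fits and a prior count of 0.125, in 1 model of all 20 libraries with a mean for each of 5 groups. All 10 comparisons between groups were made. The procedure was tested on simulated data with few genes changed at 12 h. There it called 27 of 41 genes set to a fold of 0.5 and 43 of 53 set to 2. At folds of 0.25 and 4 it called 51 of 59 and 47 of 47, and of 15875 unchanged genes 11. In the real data 69.4% of tested genes were called at 12 h, a setting that this simulation does not cover. Alternatives were other scalings, filters, a replicate block, the 8 libraries compared, DESeq2 1.42.0, a prior count of 2 and omission of each library in turn. Replicates differed by more than sampling noise (chi-square per degree of freedom 3.53 to 57.5 over 30 pairs).

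The 9 genes, the 4 lists around them and the cell type markers were chosen with earlier results of these data known. Named from each list were up to 2 rises and 2 falls per time point, the largest with an adjusted p under 0.05, 1 CPM or more on average and no overlap between the 4 treated and the 4 control libraries, of which 1 gene is not reported here. Positions are from GENCODE 29, and promoters from RefSeq.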

Additional observations from a re-analysis of the deposited data

Results flagged for a closer look

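AGR2 in control replicate 3, at 79.4 CPM, stood apart from the other 3 controls, which lay between 68.8 and 70.0 CPM. Its gap to the nearest, divided by the range of the group, was 0.889, above Dixon's 95% critical value for 4 samples. It was the only library so found among 30 sets of 4 libraries, of which chance marks about 1 in 20. Without it, the log2 fold change of AGR2 was -1.21 at 12 h, 0.37 at 48 h and 1.501 at 72 h, all past the threshold (adjusted p = 3.93e-11, 0.00197 and 1.02e-12, edgeR).

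The effect of EGF on AGR2 had opposite signs at early and late time points, and the difference itself was tested. The log2 fold change was 1.59 from 12 to 48 h (adjusted p = 5.02e-13), 2.72 from 12 to 72 h (8.34e-17), 1.05 from 24 to 48 h (2.31e-09) and 2.18 from 24 to 72 h (1.32e-14), with all 4 later libraries above all 4 earlier ones each time.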

How the results depend on the processing

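Of 22 fold changes against the control that passed the threshold, 3 lost it under an alternative: ESR1 at 24 and 72 h with factors per gene, and GATA3 at 24 h when scaled by library size only. None lost it when a library was left out. For 24 against 12 h, the 3 genes called became 5 under upper quartile or library size scaling or with at least 10 counts in every library. For 72 against 24 h, the 2 genes called became 1 with factors per gene, and between 1 and 2 without single libraries, since GATA3 was lost. Signs turned only for small changes. Scaled by library size only, they were GATA3 at 12 h against the control (-0.18) and, against 12 h, SPDEF at 24 h (0.13), 48 h (0.29, adjusted p = 0.0364) and 72 h (0.041) and XBP1 at 48 h (0.16, adjusted p = 0.0165). By upper quartiles they were GATA3 at 12 h (-0.058) and, against 12 h, SPDEF at 24 h (0.11) and 48 h (0.18) and XBP1 at 48 h (0.040). SPDEF against 12 h was also 0.031 at 24 h and 0.069 at 48 h with at least 10 counts in every library, and 0.010 at 24 h from the 8 libraries alone. FOXA1 at 72 against 12 h was -0.0013 with DESeq2's size factors, -0.037 without the filter and -0.0021 in DESeq2. SPDEF at 48 against 24 h was -0.0036 with those size factors, -0.027 with factors per gene, -0.0018 without the filter and -0.0027 in DESeq2. ESR1 at 72 against 24 h was 0.022 with factors per gene. Leaving out single libraries, SPDEF ranged from -0.043 to 0.025 (24 against 12 h), -0.12 to 0.056 (48 against 12 h) and -0.11 to 0.065 (48 against 24 h), and FOXA1 from -0.019 to 0.026 (72 against 12 h). The cause was not tested. The prior count of 2 moves fold changes only.

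The replicate numbers did not pair the samples. Deviations from the group means correlated with r over 0.1 in 12 of 40 same-numbered pairs (median 0.019), and 24 of 80 best matches had their own number. Single pairs ran from -0.37 to 0.57 with the same number and from -0.53 to 0.46 with other numbers. Some libraries thus shared deviations whatever their number. With a replicate block, SPDEF at 48 against 24 h turned to -0.0082, and between 6175 and 11752 of 16522 genes were called per comparison in place of 5906 to 11610. Low counts limit ESR1, with 35 to 153 counts per library, and TFF1, with at most 5. PGR and TFF3 were below detection at this depth.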

Other observations

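Basal markers moved in both directions. Of 14 basal markers, 12 were tested, and 9 were higher and 3 lower at 12 h, 9 and 2 at 24 h, 7 and 2 at 48 h, and 9 and 2 at 72 h. Of all tested genes, 32.9% were called higher and 36.5% lower at 12 h, 29.2% and 29.6% at 24 h, 24% and 21.8% at 48 h, and 30.6% and 31% at 72 h. Their summed level ran from 4651 to 4835 CPM in the control libraries, 16860 to 17655 at 12 h and 7253 to 7821 at 72 h, most of it EGFR (3471 ± 103 CPM in the control and 11746 ± 322 at 12 h, SD, n = 4). KRT6A, a stress keratin, went from 2.58 ± 0.56 CPM to 1117 ± 39.7 at 12 h and 70.1 ± 7.86 at 48 h (log2 fold change 8.77 and 4.78, adjusted p = 2.51e-23 and 1.13e-18, edgeR). KRT17 rose from 98.1 ± 7.48 to 1252 ± 88.4 CPM at 12 h (log2 fold change 3.67, adjusted p = 7.70e-19). At 48 h it stood at 87.9 ± 4.22 CPM (log2 fold change -0.16, adjusted p = 0.188). SOX10 and FABP7 had no count in any library. KRT6A, KRT17 and EGFR were named after their values were seen, and all of them rose at 12 h. Other basal markers fell, and the lowest log2 fold change among those tested was -1.52 at 12 h. It was -1.76 at 24 h, -1.01 at 48 h and -1.77 at 72 h.

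Another estrogen-responsive gene of very low level, SCUBE2, was read in every library only at 72 h, with 3, 4, 4 and 1 counts, as was TFF1 with 5, 2, 5 and 4. It had none in the controls. Without the filter on low counts its adjusted p at 72 h was 0.00350 in edgeR. It was singled out after its values were seen. ERBB4 and ANKRD30A had no count in any library.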
